A study of Ovis aries with 15 samples.

Results

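Fibroblast growth factor (FGF) signalling in the ovine mammary gland was followed through 10 genes: the ligands FGF1, FGF2, FGF7 and FGF10, the receptors FGFR1, FGFR2, FGFR3 and FGFR4, and the sprouty inhibitors SPRY1 and SPRY2. Members were the rows of the deposited expression table that carry one of these symbols, and 8 of the 10 were found among its 24691 features. The other two stand under other names: FGFR1 as the row LOC780507, matched by its gene ID, and SPRY2 as the row SPRY-2. Both rows are described below but are left out of the counts of members unless stated. RNA came from needle biopsies of mammary parenchyma of primiparous 2-year-old Romney ewes, first at gestation day 135 (late pregnancy) and later at day 15 after parturition (lactation). Each of the 15 libraries, 9 of late pregnancy and 6 of lactation, was made from the pooled RNA of several ewes. The study's methods give 3 ewes for every pool, whereas the series description gives 3 for late pregnancy and 2 for lactation. The ewes were all managed alike and differed by what their own dams were fed in early gestation: ad libitum (HM), maintenance (MM) or sub-maintenance (LM), with all 3 sets of dams on maintenance feeding thereafter. Each dam group supplied 3 late pregnancy pools and 2 lactation pools. P-values measure the spread between pools and not that between single ewes.

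FGFs are secreted proteins that bind receptor tyrosine kinases together with heparan sulfate chains on the cell surface, and an activated receptor signals through adaptor proteins to RAS and the ERK kinases. Sprouty proteins are induced by this pathway and restrain it. In the mammary gland, FGF10 and FGF7 are ligands made by the stroma, and the epithelial form of FGFR2 that receives them is needed for bud formation and ductal branching.

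Late pregnancy libraries held 6471237 to 16898986 exon reads and lactation libraries 9014506 to 24001031. In late pregnancy 13.7% to 23.4% of these reads lay on 7 milk protein genes, compared with 71.3% to 75.8% in lactation, so the other genes shared far fewer reads in lactation. Levels are given as CPM, the standard depth-scaled count, after TMM scaling, a scaling that sets libraries level on the bulk of their genes. Markers of every cell type examined were detected, apart from plasma cells, whose marker JCHAIN had no row. The summed level of 8 luminal epithelial markers was 1760 to 2172 CPM in late pregnancy and 2493 to 2743 CPM in lactation, while that of 8 fibroblast markers was 1330 to 2116 CPM and 635 to 1018 CPM. Such sums lean on the genes with the highest levels, named here after their values were seen. In late pregnancy these were ELF5 and KRT19 (means 629 and 622 CPM) among the luminal markers. Among the fibroblast markers they were COL3A1, COL1A2 and COL1A1 (835, 401 and 283 CPM). The sums therefore do not show how most markers changed. In whole tissue, fewer cells of a type and less RNA per cell cannot be told apart.

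On exon reads, every member that passed the test was lower in lactation. Of the 7 members with enough reads to be tested, 5 (FGF2, FGFR2, FGFR3, FGFR4 and SPRY1) were lower in lactation at an adjusted p under 0.05 in edgeR's quasi-likelihood test, and FGF1 and FGF10 did not pass. Across all 13345 genes tested, 35.2% were called lower and 33.1% higher. No member was called higher: the count was 0 in edgeR, 0 in DESeq2, and 0 at an unadjusted p under 0.05. The median log2 change (lactation over late pregnancy) was -0.74 over the 7 members and -0.03 over all genes tested. In 3 members (FGFR2, FGFR3 and SPRY1) every lactation library lay below every late pregnancy library, as did 20.0% of all genes tested. With the rows LOC780507 and SPRY-2 included, the count remained 5, now of 9 rows tested, and the median log2 change was -0.53. The filter on low counts was applied before TMM scaling, and milk protein genes took most reads in lactation. A member with few reads could thus enter the test mainly through late pregnancy, which favoured members lower in lactation. FGFR4, with 0 to 4 reads per lactation library, entered in this way, as did FGFR3 (5 to 14), FGF1 (1 to 8) and FGF10 (2 to 5). FGF2 (5 to 18) also needed the late pregnancy libraries to pass the filter. Without a filter 5 members were also called lower. The plot of CPM by library shows the values behind these counts.

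**Figure D1:**
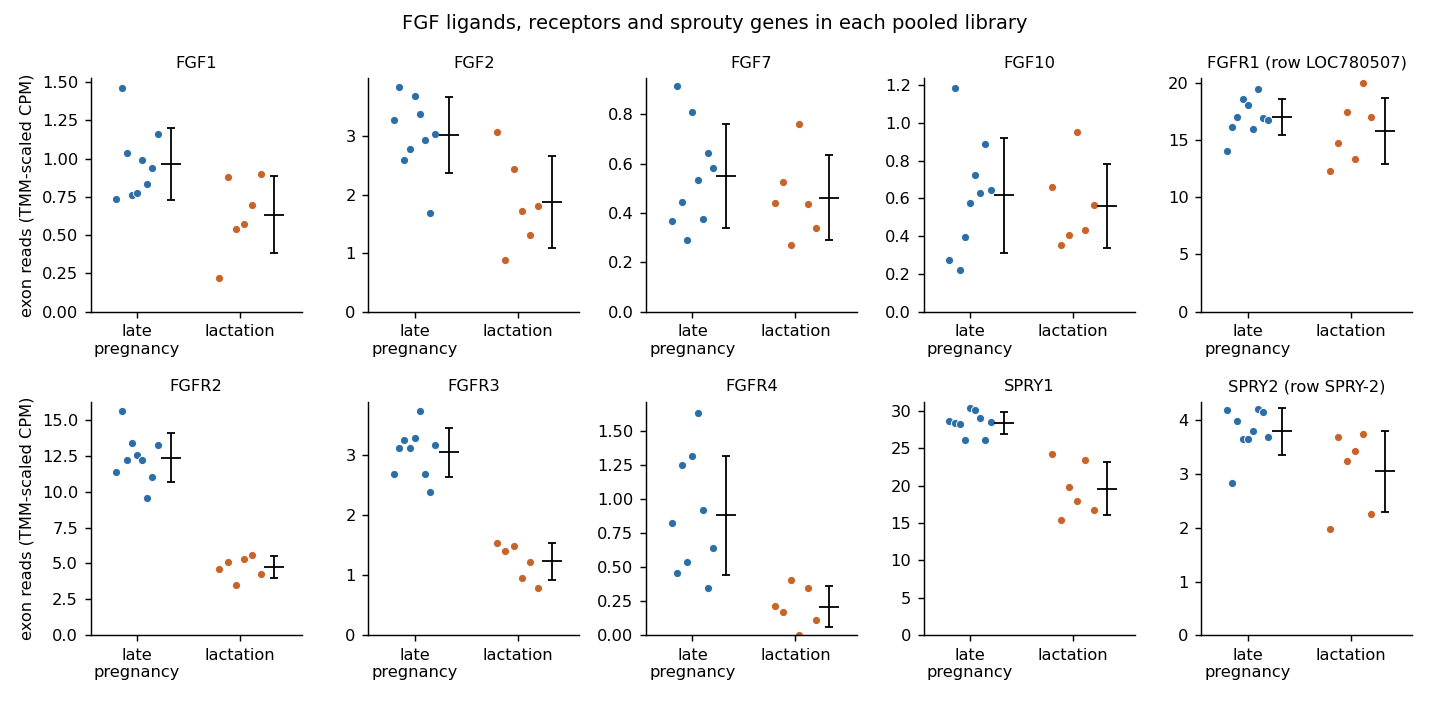
TMM-scaled CPM of exon reads (y axis, from 0) of the 10 genes in 9 late pregnancy (blue) and 6 lactation (orange) libraries. Each point is 1 pooled library, and the cross with bars gives the mean and SD. The states are fully separated for FGFR2, FGFR3 and SPRY1, and overlap for the other 7 genes.

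Among the ligands, FGF2 fell and the others did not pass the test. FGF2 (basic FGF, a broadly acting growth factor for stromal, endothelial and epithelial cells; chr17:34517874-34572443 in the coordinates of the deposited table) ranged from 1.68 to 3.84 CPM in late pregnancy, with a median of 3.04 CPM. In lactation its lowest, median and highest values were 0.878, 1.76 and 3.07 CPM. The 2 ranges overlapped, with MM late pregnancy pool 2 the lowest of its state. Above it lay the lactation pools HM pool 1 (3.07 CPM), LM pools 1 and 2 (2.44 and 1.71 CPM) and MM pool 2 (1.80 CPM). Of these, HM pool 1 also lay above the late pregnancy median. The log2 change was -0.74 (SE 0.23, edgeR adjusted p = 0.0075), a 1.66-fold lower level. Its reads in lactation numbered 5 to 18 per library, against 34 to 109 in late pregnancy.

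FGF1 (acidic FGF, a ligand of all 4 receptors; chr5:51001955-51114005) ranged from 0.737 to 1.46 CPM (median 0.940) in late pregnancy and from 0.220 to 0.901 CPM (median 0.633) in lactation. The log2 change of -0.49 (SE 0.26) had a 95% interval of -1.02 to 0.05 and an edgeR adjusted p of 0.14, so that neither no change nor a fall of that size was excluded. It was called lower with upper quartile scaling (log2 change -0.64, adjusted p = 0.044), a scaling under which the median of all genes was -0.18.

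The ligands of the epithelial form of FGFR2 gave few reads. FGF10 (chr16:30467357-30562987) ranged from 0.222 to 1.19 CPM (median 0.626) in late pregnancy and from 0.351 to 0.951 CPM (median 0.499) in lactation, with 2 to 19 reads per library. The log2 change was -0.16 (SE 0.38, 95% interval -0.94 to 0.63, edgeR adjusted p = 0.73), and its sign turned in lane 8 alone and with quantile-normalised RPKM. FGF7 (keratinocyte growth factor; chr7:57780503-57841474) did not pass the filter on low counts. It ranged from 0.289 to 0.913 CPM (median 0.532) in late pregnancy and from 0.271 to 0.761 CPM (median 0.437) in lactation. Its gene overlaps FAM227B and only 85.0% of its reads were placed uniquely, so its level is uncertain. For FGF10 the interval excludes a change as large as that of FGFR2, and smaller changes were not detectable at this depth. FGF7 has no test.

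The receptors divided: FGFR2, FGFR3 and FGFR4 fell, and FGFR1 did not pass the test. FGFR2 (chr22:40405792-40510100) ranged from 9.56 to 15.6 CPM (median 12.2) in late pregnancy and from 3.52 to 5.57 CPM (median 4.85) in lactation. The lowest late pregnancy pool was thus well above the highest lactation pool. Its log2 change was -1.37 (SE 0.12, edgeR adjusted p = 5.2e-09), a 2.59-fold lower level. Leaving out any one library gave a log2 change between -1.45 and -1.30. The row counts the reads of 2 annotated transcripts together, so the epithelial form of FGFR2 was not told apart from other forms.

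FGFR3 (chr6:116114542-116123419), a receptor expressed in epithelia and in cartilage, fell to a similar degree. It ranged from 2.37 to 3.72 CPM (median 3.11) in late pregnancy and from 0.789 to 1.54 CPM (median 1.31) in lactation, without overlap. The log2 change was -1.32 (SE 0.18, edgeR adjusted p = 1.4e-06), a 2.50-fold lower level.

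FGFR4 (chr5:36049909-36060718), best known as the liver receptor for FGF19 in bile acid control, was the least expressed receptor. In late pregnancy its lowest, median and highest levels were 0.346, 0.829 and 1.63 CPM, and in lactation 0, 0.198 and 0.407 CPM. It had 0 to 4 reads per library in lactation, and the 0 of LM lactation pool 2 allows a level of up to 0.570 CPM (3 reads, counting error only). The ranges met where 2 lactation pools exceeded the lowest late pregnancy pool. The log2 change of -1.95 (SE 0.51, edgeR adjusted p = 0.0023) was the largest among the members, with a 95% interval of -3.02 to -0.87.

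The row LOC780507, FGFR1 (chr26:32193143-32234177), had the highest read counts of the 4 receptors. It ranged from 14.1 to 19.5 CPM (median 16.9) in late pregnancy and from 12.3 to 20.0 CPM (median 15.9) in lactation. The lactation range enclosed the late pregnancy range. The log2 change was -0.08 (SE 0.096, edgeR adjusted p = 0.49), and its 95% interval of -0.28 to 0.12 excludes a change as large as that of FGFR2. With upper quartile scaling FGFR1 was called lower (log2 change -0.23, adjusted p = 0.043), against a median of all genes of -0.18.

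SPRY1 (chr17:34047447-34051585), an inhibitor of receptor tyrosine kinase signalling, was the member with the most reads. It ranged from 26.1 to 30.4 CPM (median 28.4) in late pregnancy and from 15.5 to 24.2 CPM (median 18.8) in lactation. The 9 late pregnancy pools were close together and all above the lactation pools, which were more spread. The log2 change was -0.53 (SE 0.084, edgeR adjusted p = 1.2e-05), a 1.45-fold lower level.

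The row SPRY-2, SPRY2 (chr10:55821638-55822379), ranged from 2.83 to 4.22 CPM (median 3.80) in late pregnancy and from 1.98 to 3.74 CPM (median 3.34) in lactation. HM pool 1 and MM pool 2 were the low lactation pools, and the other 4 lay within the late pregnancy range. The log2 change was -0.30 (SE 0.14, edgeR adjusted p = 0.070). This value lay near the threshold: it passed without HM late pregnancy pool 2 (adjusted p = 0.038) and without MM lactation pool 1 (adjusted p = 0.036), as well as with quantile-normalised RPKM (adjusted p = 0.036) and upper quartile scaling (adjusted p = 0.0093).

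Libraries named for lane 7 (4 late pregnancy, 3 lactation) and for lane 8 (5 and 3) were also fitted apart. The log2 change of FGFR2 was -1.18 in lane 7 and -1.56 in lane 8, that of FGFR3 -0.99 and -1.62, and that of SPRY1 -0.41 and -0.66, all with an edgeR adjusted p under 0.05. In lane 7 alone FGF2 (log2 change -0.84, adjusted p = 0.11) and FGFR4 (-1.26, adjusted p = 0.094) no longer passed. The sample descriptions say that each library was run on 2 lanes, so the lane in a name may not separate the libraries.

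Several cell type markers were also lower in lactation. With TMM scaling, of 8 fibroblast markers 7 were called lower and 0 higher (edgeR; median log2 change -0.54), of 5 endothelial markers 4 lower and 0 higher (-0.55), and of 4 T cell markers all 4 lower (-1.62). Of 8 luminal epithelial markers 2 were called lower and 4 higher (0.21), and of 6 myoepithelial markers 2 lower and 2 higher (-0.02). Over all genes tested 35.2% were called lower and 33.1% higher (edgeR), with a median log2 change of -0.03. Summed endothelial markers were at 189 to 258 CPM in late pregnancy and 133 to 189 CPM in lactation. The summed T cell markers were at 35.5 to 58.1 CPM and 11.7 to 17.9 CPM, the macrophage markers at 104 to 136 CPM and 62.2 to 92.0 CPM (3 of 5 called lower), and the adipocyte markers at 6.14 to 27.4 CPM and 6.85 to 17.1 CPM. The 1 macrophage marker called higher, singled out after its values were seen, was CD14, at 4.23 CPM in late pregnancy and 18.4 CPM in lactation (log2 change 2.13, edgeR adjusted p = 1.8e-11). The B cell markers CD79A, CD79B and MS4A1 summed to 1.94 to 3.56 CPM and 0.609 to 2.85 CPM, while JCHAIN, the plasma cell marker of the list, had no row. No marker with a row was at 0 in all libraries. The part of these shifts in the fall of FGF2, the receptors and SPRY1 was not tested.

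Reads outside the exons of a gene, here called intron reads, gave a second readout of the same genes. They can come, among other sources, from unspliced RNA or from exons missing in the annotation, and their source was not tested. They were scaled on their own, and 4 of the 10 genes had enough of them. Intron reads of FGF2, which made up 94.5% of the reads on this gene, fell by 1.19 on the log2 scale (SE 0.081, edgeR adjusted p = 6.6e-12), from 437 ± 34.9 (SD, n = 9) to 191 ± 15.5 (SD, n = 6) intron CPM. In every lactation library FGF2 was below every late pregnancy library on these reads, unlike on its exon reads. The intron log2 change was -0.96 (SE 0.29, edgeR adjusted p = 0.0068) for FGFR2 and -0.45 (SE 0.13, edgeR adjusted p = 0.0059) for SPRY1. For FGFR1 it was -0.06 (SE 0.18, edgeR adjusted p = 0.78), so that each of the 4 genes kept on intron reads the call it had on exon reads. Members called lower were thus 3 of 3 tested, where 29.0% of all 10344 genes tested on intron reads were called lower. A filter on low counts came first here too, and FGFR2 had only 2 to 64 intron reads per library. Its lowest values were 9.23 intron CPM in late pregnancy and 2.09 in lactation. FGFR2 thus needed the late pregnancy libraries to be tested, which favoured a fall. With the scaling factors of the exon reads FGF1 also had enough intron reads and was called higher in lactation (log2 change 0.85, edgeR adjusted p = 0.0099). Exon and intron changes are set side by side in the plot of log2 changes.

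**Figure D2:**
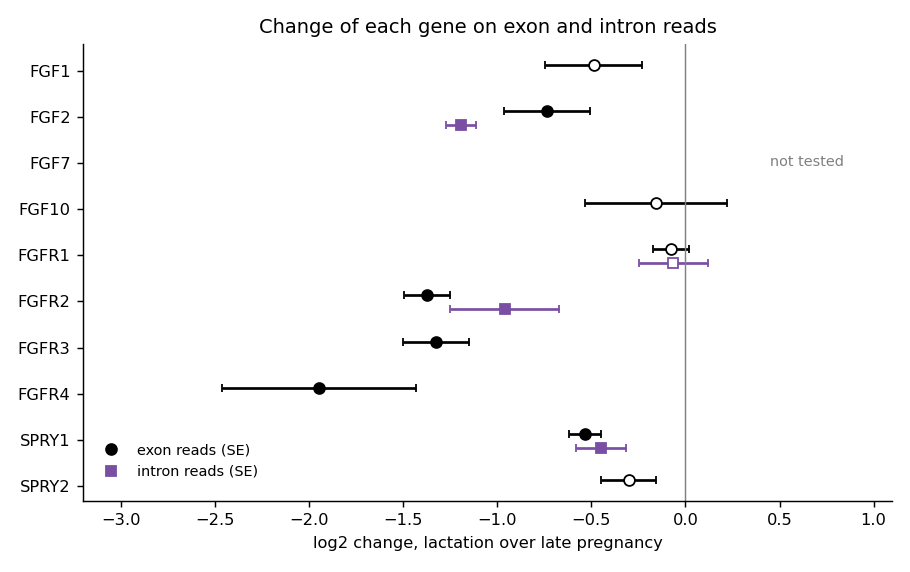
Log2 change of lactation over late pregnancy (x axis) for each gene, on exon reads (black circles) and, for the 4 genes with enough of them, on intron reads (purple squares), with bars of 1 SE. Filled symbols passed an adjusted p of 0.05. FGFR2, FGFR3 and FGFR4 lie left of -1 on exon reads while FGFR1 lies at -0.08.

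A ratio of 2 genes within a library does not depend on how libraries are scaled, apart from the pseudocount added to both values, and 5 such ratios of RPKM were compared by an exact two-sided permutation test over the 5005 ways of assigning the states. The balance of the main receptors shifted. The log2 ratio of FGFR2 to FGFR1 ranged from -1.40 to -0.42 in late pregnancy and from -2.65 to -1.68 in lactation, without overlap. Its mean went from -0.84 ± 0.27 (SD, n = 9) to -2.09 ± 0.37 (SD, n = 6), a difference of -1.25 (exact permutation p = 0.0002, the smallest this design allows, adjusted p = 0.0010 over 5 ratios). FGFR2 thus stood at 0.558 of the FGFR1 level per length in late pregnancy and at 0.235 of it in lactation.

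The other 4 ratios did not pass. The mean log2 ratio of FGFR3 to FGFR2 was -1.32 ± 0.19 (SD, n = 9) and -1.23 ± 0.47 (SD, n = 6; exact permutation, adjusted p = 0.61), so a difference between the falls of FGFR2 and FGFR3 was not shown. That of SPRY1 to SPRY2 was 1.24 ± 0.20 (SD, n = 9) and 1.03 ± 0.52 (SD, n = 6; exact permutation, adjusted p = 0.54). The log2 ratio of FGF10 to FGF7 differed by 0.28 (exact permutation, adjusted p = 0.54) and that of FGF1 to FGF2 by 0.23 (exact permutation, adjusted p = 0.61). The pseudocount decided these last calls: with 0.1 in place of 0.01 RPKM, the ratios of FGF10 to FGF7, FGF1 to FGF2 and FGFR3 to FGFR2 passed (adjusted p = 0.018, 0.018 and 0.031), and low values are drawn together by a larger pseudocount.

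**Figure D3:**
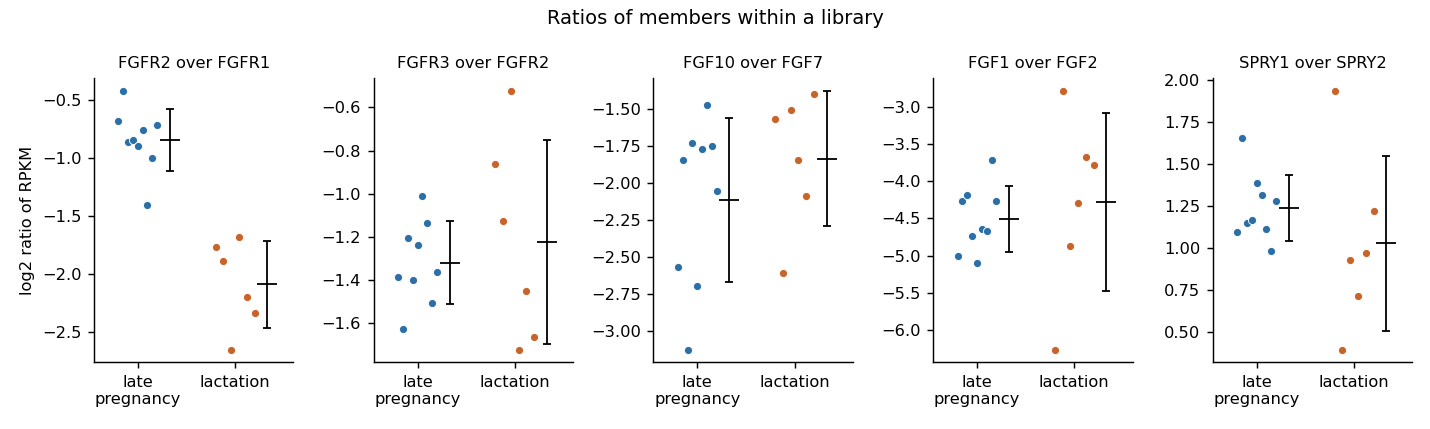
Log2 ratio of RPKM within each library (y axis; each panel has its own range, and a pseudocount of 0.01 was added) for 5 pairs of genes, in 9 late pregnancy (blue) and 6 lactation (orange) libraries. Points are libraries and crosses with bars are means and SD. FGFR2 over FGFR1 is the pair without overlap, at -1.40 and above in late pregnancy and -1.68 and below in lactation.

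Levels of different genes were compared as CPM per kb of exon. In late pregnancy SPRY1 led with 12.0 ± 0.635 (SD, n = 9) CPM per kb, above the next gene in all 9 libraries, followed by FGF2 at 6.45 ± 1.38, FGFR1 at 5.21 ± 0.489 and SPRY2 at 5.12 ± 0.582. FGF2 exceeded FGFR1 in 8 of 9 libraries, whereas FGFR1 exceeded SPRY2 in 5 of 9, so FGFR1 and SPRY2 did not separate. FGFR2 stood at 2.92 ± 0.403 CPM per kb, below SPRY2 in all 9 libraries, then FGFR3 at 1.17 ± 0.155 and FGF7 at 0.941 ± 0.359. FGFR4 (0.281 ± 0.140), FGF1 (0.276 ± 0.067) and FGF10 (0.223 ± 0.110) shared the lowest place, with FGFR4 above FGF1 in 5 of 9 libraries.

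In lactation the order was SPRY1 (8.29 ± 1.51, SD, n = 6, CPM per kb), FGFR1 (4.85 ± 0.883), SPRY2 (4.12 ± 1.02), FGF2 (3.99 ± 1.68), FGFR2 (1.12 ± 0.179), FGF7 (0.789 ± 0.293), FGFR3 (0.472 ± 0.117), FGF10 (0.203 ± 0.080), FGF1 (0.181 ± 0.072) and FGFR4 (0.067 ± 0.048). SPRY1 was again above the next gene in all 6 libraries. FGFR1, SPRY2 and FGF2 did not separate, since FGFR1 exceeded SPRY2 in 4 of 6 libraries and SPRY2 exceeded FGF2 in 3 of 6. FGFR4 fell to the last place, below FGF1 in 5 of 6. The exon lengths recorded for FGF2 (468 bases), FGF7 (585), FGFR3 (2607), FGFR4 (3141) and SPRY1 (2361) are multiples of 3. Coding sequence alone would give such a length, but so can chance, and which ends are annotated was not examined. Levels per kb, of these 5 genes or the others, may therefore not compare where untranslated ends are annotated unequally.

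**Figure D4:**
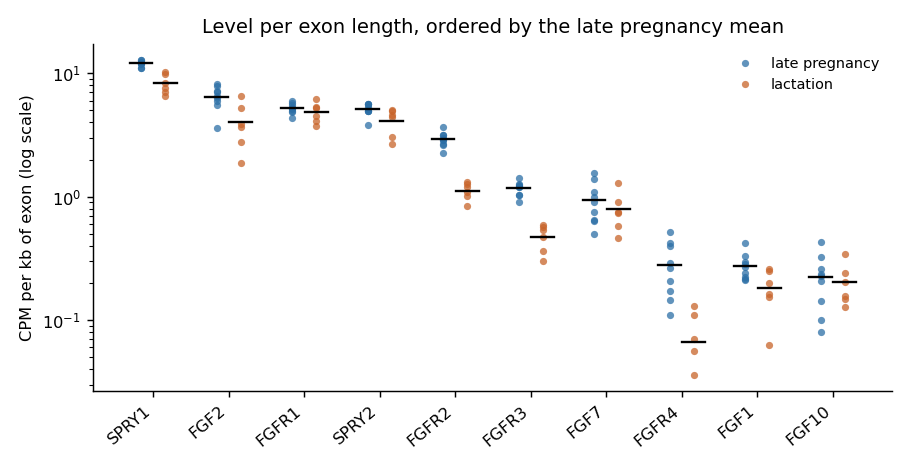
CPM per kb of exon (y axis, log scale) of the 10 genes, ordered by their late pregnancy mean. Points are libraries (late pregnancy blue, lactation orange) and black lines are means. A library with 0 reads, LM lactation pool 2 for FGFR4, has no point on this scale. SPRY1 stays the highest in both states, and FGFR4 goes from 0.281 to 0.067.

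The feed of the ewes' dams made no detectable difference to these genes. In the 9 late pregnancy libraries 0 of 8 members were called over the HM, LM and MM groups by edgeR, 0 at an unadjusted p under 0.05, and 0 by DESeq2. Of all 13747 genes tested 0% were called by edgeR, with 571 at an unadjusted p under 0.05 and 20 called by DESeq2. FGFR4 had, for its level, the widest spread of group means, with 0.847 ± 0.400, 1.16 ± 0.562 and 0.637 ± 0.286 CPM (SD, n = 3 each) in HM, LM and MM (edgeR adjusted p = 1.00). FGFR2 was at 13.1 ± 2.25, 12.7 ± 0.601 and 11.3 ± 1.86 CPM, and SPRY1 at 28.4 ± 0.182, 28.8 ± 2.42 and 27.9 ± 1.55 CPM in the same order. The change between states did not differ detectably between dam groups either. The interaction was called for 0 of 7 members by edgeR, 0 at an unadjusted p under 0.05 and 0 by DESeq2, and for 0% of all 13345 genes by edgeR (876 at an unadjusted p under 0.05, and 21 called by DESeq2). In lactation FGFR2 was at 4.61 to 5.09 CPM in the HM pools, 3.52 to 5.32 in the LM pools and 4.28 to 5.57 in the MM pools. With 3 and 2 pools per group, small effects of the dams' feed were beyond this design.

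The rest of the pathway held genes called in either direction, in shares not far from those of all genes. Of 86 other pathway genes with a row, 61 were tested, of which 18 were called lower and 24 higher in lactation (edgeR), where 35.2% and 33.1% of all genes tested were called; their median log2 change was 0.10. Counts by role are small and are to be read against the same shares. With library size alone as the scaling, under which the median of all genes moved to -1.93, these counts became 55 and 6. Directions below are therefore relative to the bulk of genes, and are spread out by role in the plot of tested pathway genes.

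**Figure D5:**
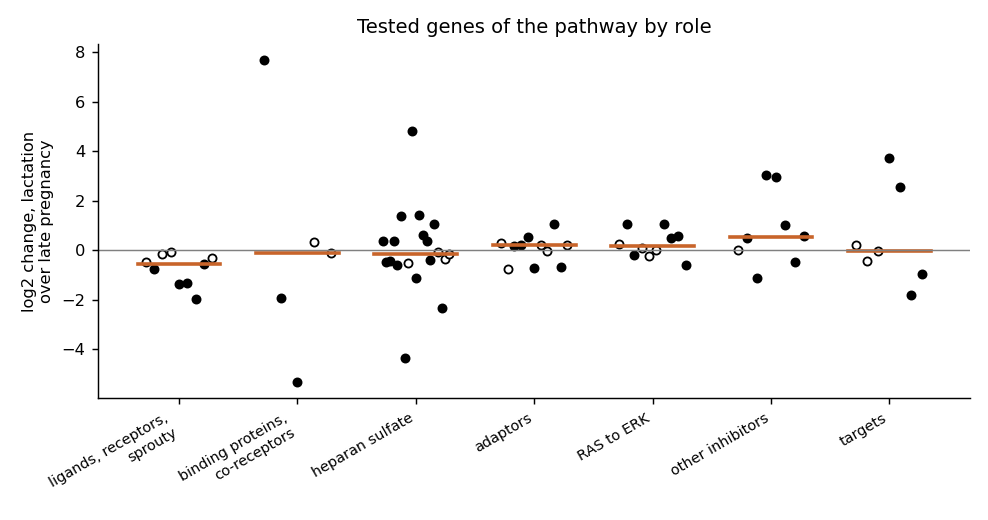
Log2 change of lactation over late pregnancy (y axis, TMM scaling) of the tested genes of the pathway, by role (x axis). FGF13 is not drawn. The first column holds the 9 tested rows of ligands, receptors and sprouty genes. Filled points passed an adjusted p of 0.05 in edgeR, and orange lines are medians. The first column lies below 0 (median -0.53), while each of the other 6 columns holds genes on both sides. With library size alone, 55 of the 61 other pathway genes tested (FGF13 included) were called lower.

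Among the 18 other ligands FGF13 alone was tested, an intracellular member of the family that does not act through these receptors. It fell from 5.16 ± 2.31 (SD, n = 9) to 0.769 ± 0.225 CPM (SD, n = 6), with a log2 change of -2.70 (SE 0.37, edgeR adjusted p = 2.0e-06). Proteins that carry or present FGFs held the largest changes among the pathway lists. FGFBP1, a secreted carrier that releases FGFs from the matrix, rose from 0.271 ± 0.189 to 62.9 ± 39.5 CPM (log2 change 7.69, SE 0.41, edgeR adjusted p = 2.1e-12). It had at most 14 reads in any late pregnancy library, so the size of its rise is uncertain. Under other settings the log2 change of FGFBP1 ranged from 5.14 to 8.42. KL (klotho, the co-receptor for FGF23) fell from 45.1 ± 11.2 to 0.939 ± 0.897 CPM (log2 change -5.33, SE 0.32, edgeR adjusted p = 1.5e-11), with at most 30 reads in any lactation library. The row LOC101105659, FGFRL1, a receptor without a kinase domain, had a log2 change of -1.93 (edgeR adjusted p = 0.00022). Of the 5 genes of this kind tested, 2 were lower and 1 higher.

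Genes of heparan sulfate, the chain that FGFs need to bind their receptors, were called 7 lower and 8 higher of 19 tested (edgeR), near the shares of all genes. The sulfotransferase HS3ST1 fell from 5.31 ± 1.68 to 0.251 ± 0.213 CPM (log2 change -4.36), with at most 3 reads in any lactation library, and the core protein GPC4 from 11.7 ± 1.37 to 2.27 ± 0.977 CPM (-2.32). SULF2, an extracellular enzyme that removes sulfate groups from these chains, rose from 9.63 ± 1.59 to 271 ± 42.2 CPM (log2 change 4.81, SE 0.11, edgeR adjusted p = 5.1e-17). The core protein SDC2 rose from 298 ± 22.9 to 803 ± 68.6 CPM (log2 change 1.43), and was lower (-0.47) with library size alone.

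Inside the cell, 2 of 11 receptor-proximal adaptors and enzymes were lower and 4 higher (edgeR). SOS2, an exchange factor of RAS, had a log2 change of -0.73 and PLCG1, a phospholipase bound by the receptor, of -0.66. GAB2 (1.06) and SOS1 (0.53) were higher, but lower with library size alone (-0.85 and -1.37). In the RAS to ERK cascade 2 of 10 were lower, MAPK3 (-0.60) and NRAS (-0.18), and 4 higher. Among the latter was the kinase MAP2K1 (1.08), which was lower with library size alone (-0.82). The small change of NRAS lost its call without LM lactation pool 1 (adjusted p = 0.066), without LM lactation pool 2 (adjusted p = 0.069) and in lane 7 alone (adjusted p = 0.59).

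Of 8 other inhibitors of the pathway tested, 5 were called higher and 2 lower (edgeR; median log2 change 0.54), and whether this differs from all genes was not tested. The ERK phosphatases DUSP4 and DUSP5 rose from 8.92 ± 1.50 to 74.2 ± 11.9 CPM (log2 change 3.05, edgeR adjusted p = 6.9e-15) and from 0.377 ± 0.161 to 3.1 ± 1.2 CPM (2.97, edgeR adjusted p = 1.2e-08). RASA1, which switches RAS off, had a log2 change of -0.45. Of 7 transcriptional targets tested, 2 were lower and 2 higher. MYC fell from 52.5 ± 3.49 to 14.9 ± 2.36 CPM (log2 change -1.80) and CCND1, cyclin D1, from 3.62 ± 0.480 to 1.89 ± 0.407 CPM (-0.96). The immediate early genes EGR1 and FOS rose, from 4.92 ± 1.31 to 65.8 ± 14.3 CPM (3.75) and from 6.78 ± 2.70 to 39.4 ± 23.4 CPM (2.55). All 4 of these targets passed in edgeR, with adjusted p-values between 4.6e-14 and 2.8e-05. These targets also respond to other growth factors and to stress.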

How the data were processed

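The authors mapped paired reads to the sheep genome in CLC Genomics Workbench and deposited read counts per gene, on exons and on the whole gene, with RPKM and quantile-normalized RPKM that the authors computed from them. The genome is Oar_v3.1 in the submitters' processing notes and a later version in the study's methods. Fold changes and p-values of the authors' own comparison were not used. Exon counts (whole-gene counts for features without a transcript) were tested with edgeR 4.0.16 in R 4.3.3: filterByExpr by state, TMM, the quasi-likelihood F-test without covariates, and Benjamini-Hochberg adjustment over all genes tested, with calls at 0.05. Intron reads are whole-gene less exon reads. Alternatives used DESeq2 1.42.0 and limma 3.58.1. Scripts were tested on simulated data. The members, the gene lists and the tests were chosen with earlier results of these data known. Named genes are all 10 members and, per pathway list, the called genes that changed most, up to 2 lower and 2 higher, and at least 1 CPM in a state, except 1 that is not reported here. Reads carried no molecular identifiers. Libraries that share a pool number between states had correlations of deviations of -0.02 to 0.07, which cannot show which ewes were in which pool. The study's methods say that ewes were sampled in late pregnancy and again in lactation. The tests without a replicate block treat the libraries as independent.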

Additional observations from a re-analysis of the deposited data

Results flagged for a closer look

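SPRY2 in HM late pregnancy pool 2 stood apart from the other 8 late pregnancy libraries. Its level was 2.83 CPM, with the next at 3.65 CPM, and that gap took 0.588 of the whole range of the group. The library was the shallowest of the series and held 31 reads of the gene. Of 30 sets of values examined in this way (10 genes and 5 ratios in each state) this was the only 1 to stand out, where chance gives about 1 in 20. Without it SPRY2 passed the test between states (log2 change -0.34, edgeR adjusted p = 0.038).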

How the results depend on the processing

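The count of 5 members lower in lactation was 5 without each library in turn and between 4 and 7 under the other settings, except in lane 7 alone, where it was 3. A filter of 10 reads in every library of a state left FGF10 and FGFR4 untested. The count with the rows LOC780507 and SPRY-2 was added after seeing the data. Library size alone called 55 pathway genes lower and 6 higher. It called 353 genes of all higher against 4419 with TMM, and 97.3% of all calls were then lower, against 51.6% with TMM and 63.7% with upper quartile scaling. It also turned the log2 change of SDC2 (-0.47), GAB2 (-0.85), SOS1 (-1.37) and MAP2K1 (-0.82). FGF10 turned to 0.023 and 0.11 with quantile-normalized RPKM (pseudocounts 1 and 0.1) and to 0.21 in lane 8 alone. The cause was not tested in these cases beyond the scaling itself. DESeq2 called 20 genes by dam nutrition and 21 for its interaction where edgeR called 0. Whether the library numbers pair the samples is not known. With dam group and pool number as a replicate block, 5 members and 8464 genes of all were called (9122 without the block), and of the genes named NRAS lost its call (adjusted p = 0.093). The difference in the log2 ratio of FGFR2 to FGFR1 was -1.21 with the replicate block, where sign flips over 6 pairs gave an exact permutation adjusted p of 0.16. Its raw p was the smallest that 6 pairs allow, so this value says nothing about stability. With an RPKM pseudocount of 0.1 the differences were 0.33 for FGFR3 to FGFR2, 0.61 for FGF10 to FGF7 and 0.97 for FGF1 to FGF2. Without each library in turn they ranged from -1.33 to -1.13 for FGFR2 to FGFR1, -0.046 to 0.19 for FGFR3 to FGFR2 (lowest without LM lactation pool 1), 0.15 to 0.43 for FGF10 to FGF7, -0.066 to 0.63 for FGF1 to FGF2 (lowest without HM lactation pool 2) and -0.39 to -0.085 for SPRY1 to SPRY2. The ratio of SPRY1 to SPRY2 passed without HM lactation pool 1 (exact permutation adjusted p = 0.021). Depth limits FGF1, FGF7, FGF10 and FGFR4 most: 3 reads were worth 0.101 to 0.274 CPM in late pregnancy libraries and 0.261 to 0.659 CPM in lactation libraries.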

Other observations

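Most reads on the FGF2 gene lay outside its annotated exons, of 468 bases: 94.5% of 11817 reads over the 15 libraries, against 13.8% for FGFR2, 17.2% for SPRY1 and 15.0% for FGFR1. FGF1 had too few intron reads to be tested on their own scale, where it was at 4.53 ± 1.65 (SD, n = 9) intron CPM in late pregnancy and 7.54 ± 1.16 (SD, n = 6) in lactation. When intron reads were scaled by the factors of the exon reads, FGF1 passed the filter and was called higher in lactation (log2 change 0.85, edgeR adjusted p = 0.0099), opposite in sign to its exon reads. Of the ligands not among the 10 genes, FGF4, FGF5, FGF6, FGF8, FGF17, FGF19, FGF20, FGF22 and FGF23 had 0 reads in every library.

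The genes whose deviations from the state means were most like those of FGFR4, the member with the largest called fall, were ORAI2 (Pearson r = 0.77), CHST10 (0.76) and SP140 (0.74) over the 15 libraries. These values describe the highest of the correlations of all expressed genes against a gene with few reads, and share the depth of the libraries.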
